A study of Mus musculus with 3 samples.

Results

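The cells described here are dividing tumour cells of 2 mouse intestines. They are a set of 6289 cell barcodes that carried transcripts of the adenoma genes *Sox17* and *Msx1* together with transcripts of the mitotic machinery. They came from a single-cell RNA sequencing experiment with 42055 barcodes in 3 libraries, of which 27836 in the 2 tumour libraries passed the limits of 500 genes and 20% mitochondrial transcripts. The members were chosen by measured values. A barcode had to hold 3 or more unique molecular identifiers (UMIs, each standing for 1 captured RNA molecule) of *Sox17* and *Msx1* together, and 4 or more UMIs summed over the 8 cell division genes *Mki67*, *Top2a*, *Birc5*, *Ube2c*, *Cdk1*, *Ccnb1*, *Ccnb2* and *Cenpf*. It also had to stay under 0.12% of its UMIs for *Wfdc18*, under 0.5% for the Paneth cell defensin *Defa24* and under 2% for the goblet cell peptide *Tff3*. These limits removed other cell states, adenoma cells high in *Wfdc18* among them. The rule left 236 members in *LApc* and 6053 in *LApcL*.

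All mice were of the C57BL/6 strain, were 7 to 8 weeks old when treated, and received 2 doses of 2 mg tamoxifen by gavage. The study's methods, however, name a single dose for WT mice. They also state that the *Lef1* fl/fl line had a mixed background and was backcrossed to C57BL/6. The *LApc* mouse carried the Lgr5-EGFP-IRES-CreERT2 allele and *Apc* fl/fl, and its cells were taken on day 29. The *LApcL* mouse carried the same alleles and *Lef1* fl/fl, and its cells were taken on day 21, as were those of the wild-type (WT) mouse. *Lgr5* marks the stem cells of the crypt base, so the Cre recombinase of this allele starts deletion there. Epithelial cells of the small intestine were sorted as EpCAM-positive, 1 mouse and 1 library per group. Genotype, mouse and library, for *LApc* the day, and for *LApcL* any mixed background left after backcrossing cannot be told apart. The same may hold for the version of the reagent kit, which is not stated per library. No comparison between genotypes has a replicate check. Every interval given here is a 95% interval that covers counting error only.

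*Apc* holds β-catenin in check. Its loss in stem cells lets β-catenin accumulate and act with DNA-binding partners of the Tcf/Lef family, of which *Lef1* is a member that the healthy adult intestine scarcely uses. Wnt-driven adenoma cells divide, but they also switch on a set of secreted and intracellular Wnt antagonists (*Axin2*, *Nkd1*, *Notum*, *Wif1*, Dkk genes), which dampen Wnt signalling in the cell itself or in its neighbours. In the healthy crypt, division belongs to stem cells and to the transit-amplifying cells above them.

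The members were compared with 2 other sets, also defined by the rule. Non-cycling adenoma cells passed the same gates with fewer than 4 UMIs of the 8 division genes, and there were 229 in *LApc* and 3208 in *LApcL*. Cycling cells without adenoma transcripts had 0 UMIs of *Sox17* and *Msx1* and 4 or more of the division genes, numbering 2845 (WT), 1680 (*LApc*) and 888 (*LApcL*). Since the rule made these sets, differences between them are given as a description. Levels are in CPM, UMIs summed over all cells of a set and scaled so that every set has the same total, and a difference is the log2 ratio of 2 such levels.

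Of the genes given with the label of the members, *Sox17*, *Msx1* and *Mki67* were fixed by the rule, and *S100g* and *Clu* were not used by it. These genes were listed with earlier results of these data known, so their levels describe the members and do not test the label. *S100g*, which encodes the calcium-binding protein calbindin D9k, stood at 8728 CPM in *LApc* members and 4415 CPM in *LApcL* members, against 145 CPM in WT cycling cells. *Clu*, which encodes the secreted chaperone clusterin, stood at 635 and 263 CPM, against 1.43 CPM in WT cycling cells. Both genes were also far lower in cycling cells without adenoma transcripts of the same libraries, with *S100g* at 83.7 and 570.1 CPM and *Clu* at 59.3 and 105 CPM. In both libraries *Clu* was lower in members than in non-cycling adenoma cells. The epithelial adhesion gene *Epcam* stood at 1729 and 1646 CPM, close to the 1748 CPM of WT cycling cells. The 7 stromal and endothelial markers summed to 36.9 CPM in *LApc* members and 14.2 CPM in *LApcL* members, against 0.188, 2.15 and 2.83 CPM in cycling cells without adenoma transcripts of WT, *LApc* and *LApcL*. *Cdh5*, the gene of the endothelial cadherin, made up 31.2 and 13.4 CPM of these sums in members, on UMIs in 53 and 840 of them, and had 0 UMIs in WT cycling cells, which at 3 counts allows up to 0.0808 CPM. The fibroblast genes *Col1a1*, *Col3a1* and *Dcn* were at 0 in both sets of members, which allows up to 1.07 (*LApc*) and 0.0340 CPM (*LApcL*). The part of other cell types in the members was not tested. The 7 immune markers summed to 10.7 CPM in *LApc* and 1.76 CPM in *LApcL*, with the pan-leukocyte gene *Ptprc* at 0.355 and 0.374 CPM.

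The transcript of *Lef1*, the gene targeted in *LApcL*, stood lower in members of that library. *Lef1* (chr3:131110471-131224356, GRCm38, plus strand) stood at 17.4 CPM in *LApc* members, 49 UMIs in 37 cells, and at 3.23 CPM in *LApcL* members, 285 UMIs in 276 cells. The log2 ratio was -2.43 (-2.87 to -1.96), and non-cycling adenoma cells gave 15.01 and 4.25 CPM. *Lef1* was 0.162 CPM in WT cycling cells and 1.48 and 1.05 CPM in cycling cells without adenoma transcripts of *LApc* and *LApcL*. *Apc* itself was not lower in members, at 43.0 and 36.8 CPM against 20.1 CPM in WT cycling cells. The reads came from the 3′ end of the transcript, so the count of *Apc* says nothing about the deleted part. For the same reason the count of *Lef1* need not show its deletion.

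The libraries differed in depth. They held 140181087 (WT), 79696291 (*LApc*) and 191509615 (*LApcL*) UMIs, with 9965, 5582 and 10333 UMIs at the median barcode. Members were deeper than their libraries, with a median of 11266.5 UMIs in *LApc* (4790 to 31390) and 13894 in *LApcL* (2992 to 49109), against 7447 and 9677 in non-cycling adenoma cells and 12359, 8396.5 and 10451 in cycling cells without adenoma transcripts of WT, *LApc* and *LApcL*. Members contained 3289.5 and 3545 genes and 3.05% and 3.66% mitochondrial UMIs at the median. *LApc* and *LApcL* shared 318 barcode sequences, 1 of them a member in both. A doublet score marked 33 of 236 members of *LApc* (14.0%) and 1164 of 6053 of *LApcL* (19.2%) at rates expected for the whole libraries of 10.6% and 13.9%, and the scored barcodes were kept.

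Dividing adenoma cells, as the rule defines them, were common in *LApcL* and rare in *LApc*. Adenoma cells outside the gates, such as those high in *Wfdc18*, are not part of these counts. Members made up 35.7% of 16972 passing barcodes in *LApcL* (34.9 to 36.4%) and 2.17% of 10864 in *LApc* (1.91 to 2.46%), and 1 of 11391 WT barcodes met the same rule (0.00878%). Of the adenoma cells, 65.4% of 9261 were cycling in *LApcL* (64.4 to 66.3%) and 50.8% of 465 in *LApc* (46.1 to 55.4%). This share follows depth, because a deeper cell reaches 4 UMIs more easily. With every cell thinned to 3000 UMIs before the rule was applied, 23.6% of 3297 adenoma cells were cycling in *LApcL* (22.1 to 25.1%) and 18.4% of 158 in *LApc* (12.7 to 25.3%), and these intervals overlapped. With the adenoma cells chosen at full depth and then thinned, 71.4% in *LApcL* (70.4 to 72.3%) and 59.2% in *LApc* (54.5 to 63.7%) kept 1 or more division UMI, and 50.7% (49.7 to 51.7%) and 42.8% (38.2 to 47.4%) kept 2 or more. At 4 or more the shares were 26.1% (25.2 to 27.0%) and 23.3% (19.5 to 27.5%), again with overlapping intervals. The share stood higher in *LApcL* under each of these counts, by a margin that depended on the count chosen.

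**Figure D1:**
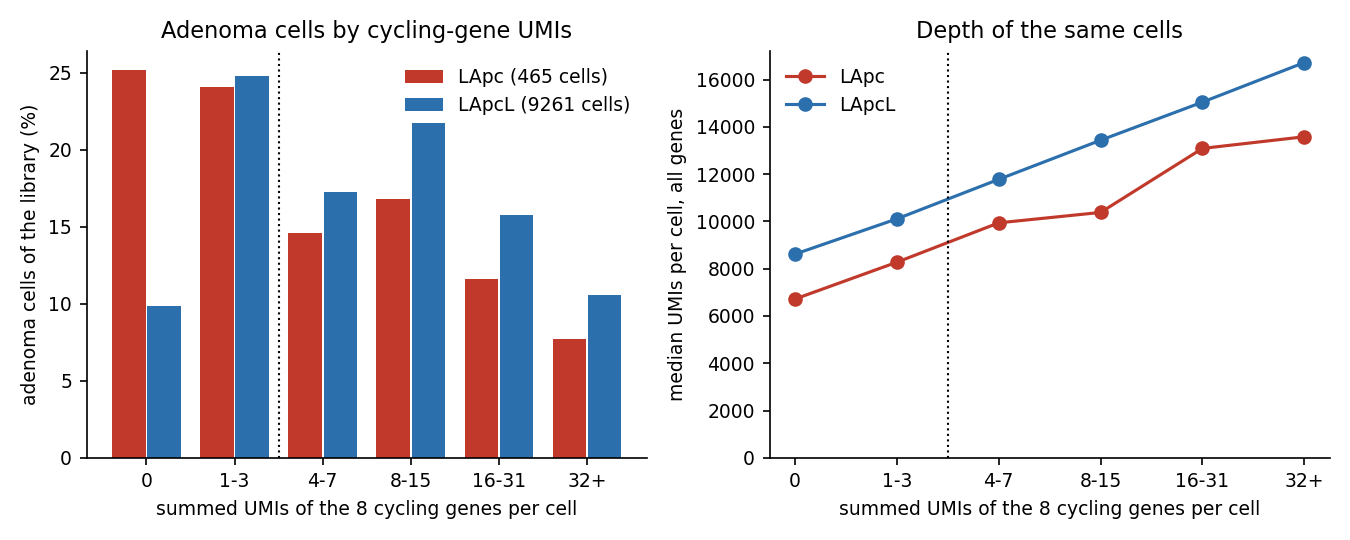
Adenoma cells by the number of UMIs of the 8 division genes. Left, percent of the 465 *LApc* and 9261 *LApcL* adenoma cells in each class of division UMIs; right, median total UMIs of the cells in that class; the dotted line marks the rule of 4 UMIs. Cells with 0 division UMIs made up 25.2% of *LApc* and 9.88% of *LApcL* adenoma cells, and total UMIs were higher in the classes with more division UMIs, from 6718 to 13581 in *LApc* and from 8617 to 16720.0 in *LApcL*.

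The plot of adenoma cells by division UMIs has no gap at the threshold. Just inside it, 19 *LApc* and 466 *LApcL* members held exactly 4 division UMIs, and just outside it 23 and 556 adenoma cells held exactly 3. On the adenoma side, 41 and 546 members held exactly 3 UMIs of *Sox17* and *Msx1*, while 51 and 496 other cycling cells within the same gates held exactly 2. The median member held 11.5 division UMIs in *LApc* and 13 in *LApcL*. The members are thus cells above a set count within a continuous range.

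Most members expressed both adenoma genes. UMIs of *Sox17* and of *Msx1* were found together in 67.8% of *LApc* members (61.4 to 73.7%) and 82.6% of *LApcL* members (81.6 to 83.6%), *Sox17* alone in 19.1% and 4.39%, and *Msx1* alone in 13.1% and 13.0%. *Sox17* (chr1:4490931-4497354, minus strand) encodes an HMG-box transcription factor of the endoderm, and *Msx1* (chr5:37820485-37824583, minus strand) encodes a homeobox repressor. *Sox17* stood at 347 CPM in *LApc* members and 316 CPM in *LApcL* members, below the 476 and 403 CPM of non-cycling adenoma cells. *Msx1* stood at 259.9 and 339.7 CPM, against 256 and 382 CPM. These 2 genes chose the cells, and their levels are a description.

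Background of the selecting transcripts was measured in cell types that should lack them. Among mature enterocytes, taken as barcodes within the gates with 0.1% or more *Apoa4*, 3 or more UMIs of *Sox17* and *Msx1* were found in 0 of 853 in WT, which allows a share of up to 0.352%, in 0.875% in *LApc* and in 21.2% in *LApcL*, where the median enterocyte held 9047, 5008 and 7194 UMIs. Of all passing barcodes, inside or outside the gates, 4.72% in *LApc* and 56.7% in *LApcL* held 3 or more. For 4 or more division UMIs the enterocyte shares were 12.4%, 5.96% and 18.1%. Paneth cells, taken as barcodes with 5% or more *Defa24*, gave 18.4%, 15.6% and 16.7% for division UMIs and 0 of 728 (a share of up to 0.412%), 0.948% and 12.1% for *Sox17* and *Msx1*. In *LApcL*, adenoma transcripts thus also stood in barcodes of other types, below the share in the whole library, and their part in the members was not tested.

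In both libraries, DNA replication and mitosis genes stood higher in members than in non-cycling adenoma cells. All 49 measured genes of the replication lists and all 63 of the mitosis lists, none of which the rule used, had a log2 ratio above 0 in *LApc* and in *LApcL*, against 47.1% and 42.4% of all genes with 10 or more UMIs in both sets together. The exceptions to a clear difference were *Pttg1*, which encodes securin, at 0.36 and 0.019, and *Ung*, which encodes uracil DNA glycosylase, at 0.20 and 0.0089, and with the median ratio set to 0 both stood below 0 in *LApcL*. The replication genes summed to 7469 CPM in *LApc* members and 3139 CPM in non-cycling cells, and to 6654 and 3389 CPM in *LApcL*, log2 ratios of 1.25 (1.21 to 1.29) and 0.97 (0.96 to 0.98). The mitosis genes summed to 6635 against 2024 CPM in *LApc* and to 5709 against 1999 CPM in *LApcL*, log2 ratios of 1.71 (1.66 to 1.76) and 1.51 (1.502 to 1.53). The division genes of the rule belong to the same programme, so that these differences restate the choice of cells in other genes. Past 2-fold stood 32 replication and 59 mitosis genes in *LApc* and 21 and 59 in *LApcL*, against 5.28% and 3.70% of all genes at the same minimum of 10 UMIs. Of the 2600 genes that reached 50 CPM in either set in both libraries, 48 (1.85%) stood 2-fold or more higher in both and 6 (0.231%) lower in both. The median log2 ratio was 0.050 over the 2935 genes at 50 CPM or more in *LApc* and 0.070 over the 2697 in *LApcL*, but -0.023 and -0.062 over genes with 10 or more UMIs.

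The division programme reached from origin licensing to cytokinesis. Among licensing genes, *Mcm6*, a subunit of the replicative helicase, stood at 66.7 against 40.7 CPM in *LApc* and at 81.2 against 60.3 CPM in *LApcL*, and the 12 licensing genes together gave 0.96 and 0.71. *Rrm2*, a subunit of ribonucleotide reductase, stood at 61.4 against 11.8 CPM and 63.6 against 14.0 CPM (log2 2.38 and 2.19), and the 24 fork and nucleotide genes gave 1.32 and 1.01. Replication genes thus differed by less than the mitotic ones in each library. The cells were split on genes of the mitotic machinery, which favours this order.

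Mitotic genes gave the widest ratios. *Tpx2*, which promotes spindle assembly, stood at 95.5 against 2.14 CPM in *LApc* and 65.6 against 5.45 CPM in *LApcL* (log2 5.48 and 3.59). *Prc1*, which bundles the microtubules of the spindle midzone, gave 4.21 and 3.32, and *Plk1*, a mitotic kinase, 3.56 and 3.06. *Cdc20*, the activator of the anaphase-promoting complex, stood at 115 against 6.97 CPM and 105 against 12.9 CPM. All 17 kinetochore and centromere genes were past 2-fold in both libraries, among them the centromeric histone gene *Cenpa* at 3.32 and 2.60. *Hist1h2ap*, a replication-dependent histone H2A gene with near-identical copies, stood at 126 against 9.11 CPM and 218 against 17.0 CPM, and its count cannot be assigned to 1 copy with certainty. Of the genes chosen by rank in this comparison, the rule itself had used *Cenpf*, *Ccnb1*, *Mki67*, *Ube2c*, *Birc5* and *Top2a*. *Mki67* (chr7:135689784-135716361, minus strand) stood at 141 against 7.51 CPM in *LApc* and 135 against 11.7 CPM in *LApcL*.

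Many promoters of these mitotic genes hold short sequence elements known from the late cell cycle. A CCAAT box and a cell cycle homology region (CHR, here TTTGAA or TTCGAA) are known elements of genes expressed late in the cell cycle, and the 250 bases upstream of each RefSeq start were searched for them on both strands. A CHR was found in 38.9% of 54 promoters of mitosis genes (49 of 63 genes matched), in 16.7% of 48 promoters of replication genes (40 of 49 genes) and in 17.1% of all 32851 promoters. CCAAT was found in 68.5%, 58.3% and 33.8%, and both elements together in 31.5%, 14.6% and 6.02%. An E2F motif (TTTCCCGC or TTTGGCGC) was found in 7.41%, 12.5% and 1.30%, and a Tcf/Lef motif (ATCAAAG) in 3.70%, 0% and 3.21%. None of these words is contained in another, TTCGAA reads the same on both strands, and a match describes letters and not a bound site. Of the 8 division genes of the rule, 5 carried both a CHR and CCAAT.

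The promoters of 4 genes of the late cell cycle are shown because they hold both elements and belong to genes that marked the members. They are *Ccnb2* (chr9:70421555-70421804, minus strand), *Cdc20* (chr4:118437344-118437593, minus strand), *Prc1* (chr7:80294226-80294475, plus strand) and *Ube2c* (chr2:164769679-164769928, plus strand), from RefSeq on GRCm38.p6, written 5′ to 3′ on the strand of the gene and ending at its start. Capitals mark CHR and CCAAT matches on either strand. The rule had used *Ccnb2* and *Ube2c*, and not *Cdc20* and *Prc1*.
Ccnb2: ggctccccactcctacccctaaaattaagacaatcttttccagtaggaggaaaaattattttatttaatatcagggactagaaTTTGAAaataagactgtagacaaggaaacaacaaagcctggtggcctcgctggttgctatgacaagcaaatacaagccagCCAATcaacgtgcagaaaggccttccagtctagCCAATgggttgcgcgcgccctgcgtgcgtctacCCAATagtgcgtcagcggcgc
Cdc20: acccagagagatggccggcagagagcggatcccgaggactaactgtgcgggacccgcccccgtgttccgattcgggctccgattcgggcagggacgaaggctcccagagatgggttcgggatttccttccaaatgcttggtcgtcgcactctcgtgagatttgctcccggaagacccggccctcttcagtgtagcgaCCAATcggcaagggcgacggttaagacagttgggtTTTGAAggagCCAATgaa
Prc1: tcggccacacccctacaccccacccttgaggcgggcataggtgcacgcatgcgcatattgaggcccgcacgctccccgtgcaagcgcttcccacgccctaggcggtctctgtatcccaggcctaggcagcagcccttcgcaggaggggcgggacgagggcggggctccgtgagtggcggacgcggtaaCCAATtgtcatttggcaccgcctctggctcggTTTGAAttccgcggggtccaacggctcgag
Ube2c: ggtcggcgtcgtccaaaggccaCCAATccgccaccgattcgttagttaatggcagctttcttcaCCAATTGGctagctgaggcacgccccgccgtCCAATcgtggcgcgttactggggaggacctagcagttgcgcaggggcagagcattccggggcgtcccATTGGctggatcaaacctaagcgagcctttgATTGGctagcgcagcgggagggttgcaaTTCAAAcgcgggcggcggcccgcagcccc

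Levels differed by the number of division UMIs. The replication sum was 2504 CPM in *LApc* adenoma cells with 0 division UMIs, 6401 CPM with 4 to 7 and 8550.3 CPM with 32 or more, and 2719, 5462 and 7654 CPM in *LApcL*. The mitosis sum was 1669.6, 4169 and 10598 CPM in *LApc* and 1688, 3511 and 8659.8 CPM in *LApcL*. Both sums were higher in every further class, and the replication sum had most of its rise by 4 to 7 division UMIs. Origin licensing genes were highest with 16 to 31 division UMIs, at 703 and 755 CPM in *LApc* and *LApcL*, and stood at 506 and 643 CPM with 32 or more. *Cdc20* went from 5.84 to 216 CPM in *LApc* and from 9.58 to 169.9 CPM in *LApcL* between the first and the last class. The classes are cut from a UMI count of division genes, so a rise of the mitosis sum is built in, and that count also follows depth.

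**Figure D2:**
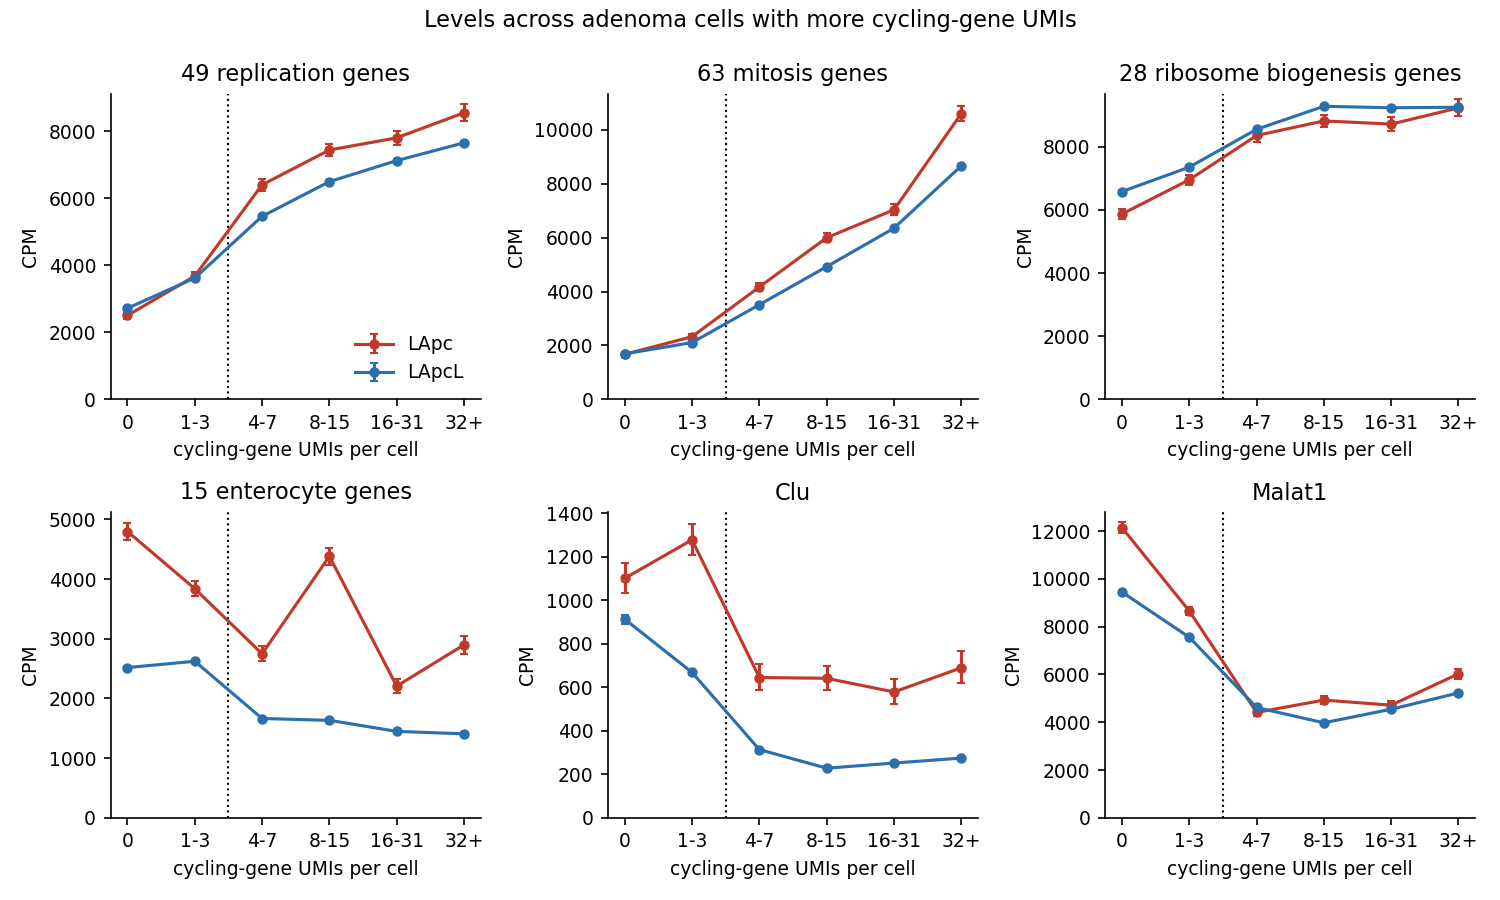
Summed level (CPM, with 95% Poisson intervals) of replication, mitosis, ribosome biogenesis and enterocyte genes and of *Clu* and *Malat1* in adenoma cells of *LApc* and *LApcL*, by class of division UMIs. Replication, mitosis and ribosome biogenesis genes are higher in cells with 4 or more division UMIs than in cells with 0, and *Clu* and *Malat1* are lower in cells with 4 or more division UMIs than in cells with 0.

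Members also varied among themselves. The replication sum of a single member was 4392 CPM at the 10th percentile, 7545 CPM at the median and 10317 CPM at the 90th percentile in *LApc*, and 4259, 6675 and 9244 CPM in *LApcL*. The mitosis sum was 3076, 6208 and 10713 CPM in *LApc* and 2634, 5416 and 9202 CPM in *LApcL*, a wider relative range. Spearman's rho between both sums was 0.56 over 236 *LApc* members and 0.64 over 6053 *LApcL* members, a description of cells that share a library and whose sums share the total UMIs as divisor.

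Genes that drive entry into the cycle were mostly above 0 one by one, but not in their sum. Of the 9 G1 cyclin and kinase genes, 7 stood above 0 in *LApc* and 7 in *LApcL*, where 2 and 7 intervals lay above 0. Of all genes with 10 or more UMIs, 47.1% and 42.4% stood above 0. The 9 G1 cyclin and kinase genes summed to 1075 CPM in *LApc* members against 1216 CPM in non-cycling adenoma cells, and to 1227 against 1367 CPM in *LApcL*. The cyclin gene *Ccnd2* made up much of the sum, at 350.4 against 580.1 CPM in *LApc* and 569 against 783 CPM in *LApcL*. Cyclin E genes stood on the other side, with *Ccne2* at 19.5 against 4.82 CPM and 16.3 against 7.94 CPM. *Ccnd1* differed less, with log2 ratios of 0.18 (-0.060 to 0.43) and 0.22 (0.16 to 0.28).

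The 14 inhibitor genes gave -0.26 (-0.36 to -0.16) in *LApc* and -0.24 (-0.27 to -0.22) in *LApcL*. *Cdkn1c*, which encodes the kinase inhibitor p57, stood at 63.5 against 103 CPM and 28.9 against 52.0 CPM, lower in members of both libraries. *Cdkn1a*, which encodes p21, stood at 214 against 213 CPM in *LApc* and 142 against 169 CPM in *LApcL*. The transcription factors of the division programme were higher in members, with *Foxm1* at 4.16 and 2.88 and *Mybl2* at 2.59 and 1.96. The 10 p53 target genes together differed little, at 0.074 (-0.044 to 0.19) and 0.0019 (-0.026 to 0.030).

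Ribosome biogenesis genes stood moderately higher in members. Of the 28 genes, 26 were above 0 in *LApc* and 27 in *LApcL*, against 47.1% and 42.4% of all genes with 10 or more UMIs. The sum was 8754 against 6459 CPM and 9104 against 7159 CPM. *Odc1*, the first enzyme of polyamine synthesis, gave 1.31 and 0.92, and *Ncl*, which encodes nucleolin, 0.57 and 0.47. *Myc* itself stood at 51.8 against 60.6 CPM in *LApc* and 58.7 against 66.5 CPM in *LApcL*, and so was not higher in the dividing cells.

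All 8 Wnt antagonists had a log2 ratio below 0 in members over non-cycling adenoma cells of the same library, as did 52.9% of all genes with 10 or more UMIs in *LApc* and 57.6% in *LApcL*. Their sum was 687 against 969 CPM in *LApc*, a log2 ratio of -0.50 (-0.59 to -0.40). In *LApcL* it was 449 against 533 CPM, a log2 ratio of -0.25 (-0.27 to -0.22). With each cell thinned to 3000 UMIs before the rule was applied, the sums stood at -0.38 in *LApc* and -0.0080 in *LApcL*, and *Axin2* at 0.43 and 0.15, *Dkk3* at 1.15 and 0.48 and, in *LApc*, *Dkk2* at 0.57 were above 0. That thinning also changed which cells were members. With the members kept and only their UMIs thinned, shares of cells with a UMI left were compared between members and non-cycling adenoma cells. For *Nkd1* they were 29.5% and 36.3% in *LApcL* and 40.3% and 52.9% in *LApc*. For *Notum* they were 24.5% and 27.2% in *LApcL* and 34.3% and 39.6% in *LApc*, again lower in members. Shares were slightly higher in members for *Axin2* in *LApcL* (35.4% and 34.4%), and for *Dkk2* (3.81% and 3.08%) and *Dkk3* (5.08% and 3.96%) in *LApc*. The intervals of each of these pairs overlapped, as did those of *Nkd1* and *Notum* in *LApc*. *Nkd1*, which encodes an intracellular inhibitor of Dishevelled, stood at 240.4 against 373 CPM and 118 against 167 CPM. *Notum*, a secreted enzyme that inactivates Wnt ligands, stood at 158 against 210.1 CPM and 93.3 against 113 CPM. *Axin2*, a scaffold of the β-catenin destruction complex, gave -0.25 (-0.47 to -0.029) and -0.0050 (-0.053 to 0.043) in the same order. The antagonists whose promoters matched, 5 of 8 genes with 6 promoters, held no CHR. Of all promoters 17.1% held one, and 6 promoters are too few to compare with that share.

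Stem cell genes differed one by one between members and non-cycling adenoma cells. Of 16 crypt stem cell genes, those with 10 or more UMIs stood below 0 in 12 of 15 cases in *LApc* and 11 of 16 in *LApcL*, against the same 52.9% and 57.6% of all genes, and 6 and 9 intervals lay below 0. *Lgr5*, the stem cell receptor for R-spondins, stood at 11.7 against 20.4 CPM and 5.35 against 9.78 CPM. The *Lgr5* gene also carries the Cre allele. *Cd44*, a hyaluronan receptor and Wnt target, stood on the other side, at 96.9 against 77.7 CPM and 150.3 against 135 CPM.

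Differentiation genes were lower in members. All 15 enterocyte markers were below 0 in both libraries, against 52.9% and 57.6% of all genes with 10 or more UMIs. Their sums were 3136 against 4278 CPM in *LApc* and 1547 against 2595 CPM in *LApcL*. Among the genes chosen by rank, the secreted chaperone gene *Clu* stood at -0.91 and -1.48, *C4bp*, which encodes a complement-binding protein, at -0.90 and -1.15, and *Malat1*, a nuclear long noncoding RNA, at -1.05 and -0.83. The apolipoprotein genes *Apoa2* and *Apoe* gave -2.50 and -1.98 in *LApc* and -1.32 and -1.18 in *LApcL*, and *Adh1*, an alcohol dehydrogenase gene, -1.47 and -1.10. *Ypel3* gave -1.43 and -1.10 and *Agr3* -0.87 and -0.87. Genes of the stomach lining were in the same group, with the proton pump gene *Atp4a* at -3.08 and -1.94 and the gastrokine gene *Gkn3* at -1.38 and -1.22, although 5 cells held 88.5% of the *Atp4a* UMIs of *LApc* members. Members were also deeper cells with a lower mitochondrial share, 3.05% and 3.66% against 3.82% and 4.08% in non-cycling adenoma cells at the median, and the part of depth in these differences was not tested.

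**Figure D3:**
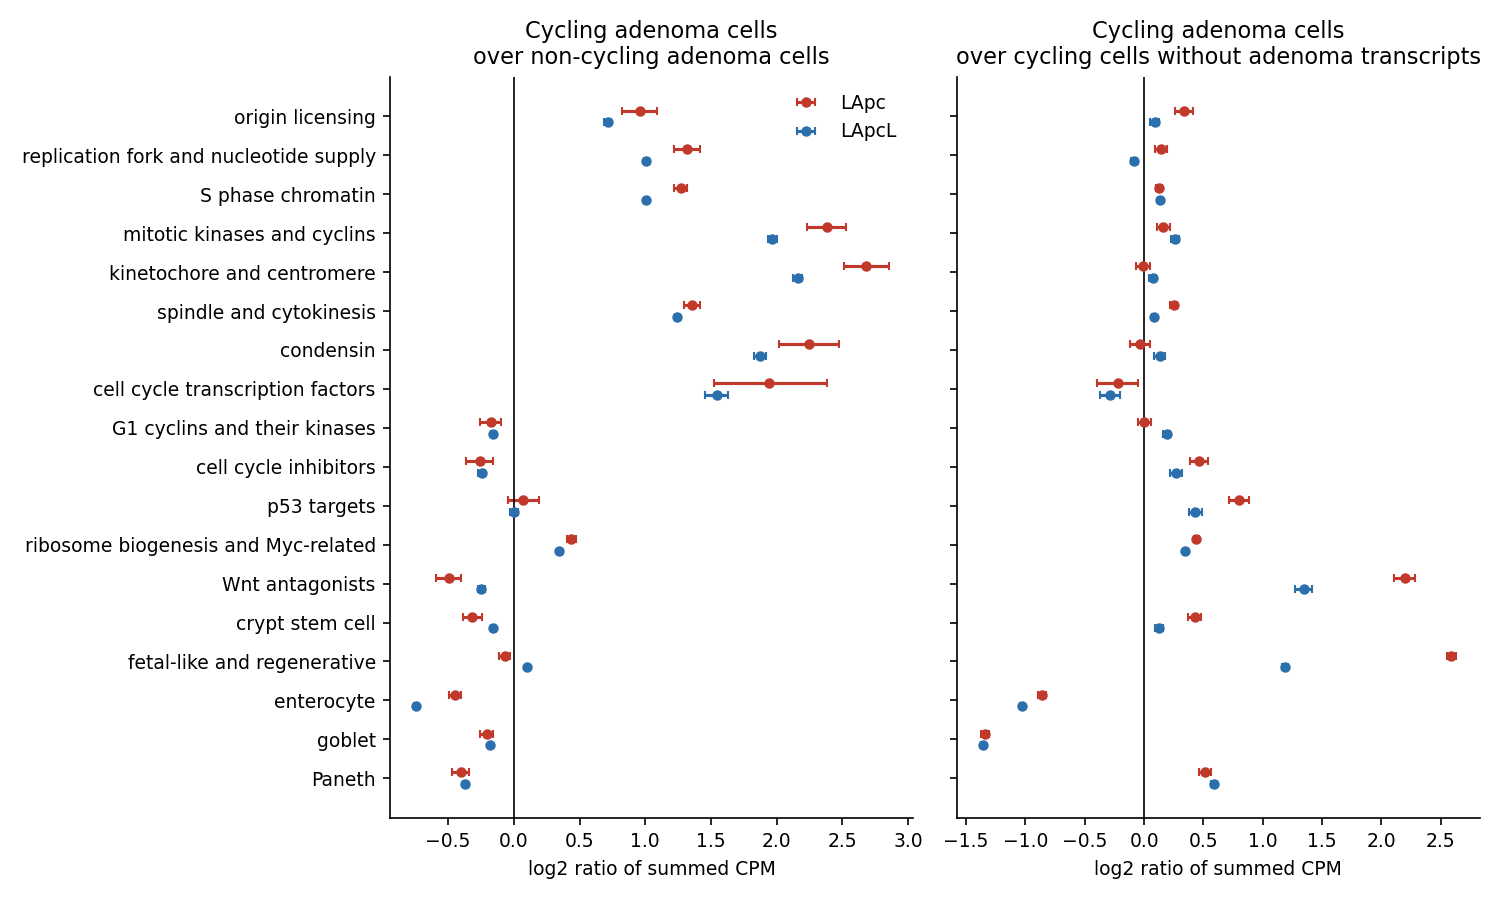
Log2 ratio of the summed CPM of 18 gene lists, with 95% counting intervals, in members over non-cycling adenoma cells (left) and over cycling cells without adenoma transcripts (right), for *LApc* and *LApcL*. Replication and mitosis lists stand above 0 on the left and within -0.084 to 0.33 on the right, while Wnt antagonists stand below 0 on the left and above 0 on the right in both libraries.

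Against other cycling cells, members were close in the summed level of division genes and stood apart in Wnt antagonists and differentiation genes. The replication genes summed to 7469 CPM in *LApc* members against 6765 CPM in cycling cells without adenoma transcripts, and to 6654 against 6289.5 CPM in *LApcL*, with 6668 CPM in WT. The log2 ratios were 0.14 (0.12 to 0.16) and 0.081 (0.069 to 0.093). The mitosis genes gave 0.17 (0.14 to 0.19) and 0.11 (0.10 to 0.13). These values lie below the median shift of all genes at 50 CPM or more, which was 0.19 in *LApc* and 0.16 in *LApcL*. Of 63 mitosis genes, 0 stood past 2-fold in either direction in either library, and of 49 replication genes 1 did, the licensing factor gene *Cdc6* in *LApc* at 1.19 (0.59 to 1.77), on 36 and 83 UMIs, against 24.5% of all genes with 10 or more UMIs in *LApc* and 20.9% in *LApcL*. These shares also cover genes below 50 CPM. Across all 2632 genes at 50 CPM or more in either set in both libraries, 74 (2.81%) stood 2-fold or more higher in both libraries and 76 (2.89%) lower in both. With the median ratio set to 0, the counts were 53 higher and 104 lower, and with ribosomal protein and mitochondrial genes left out of the totals, 82 higher and 142 lower.

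The 14 inhibitor genes together gave 0.46 (0.39 to 0.54) in *LApc* and 0.27 (0.22 to 0.32) in *LApcL* over other cycling cells, with 6 genes above 0 and 8 below in each library, so that the genes differed one by one. *Cdkn1a* stood at 214 CPM in *LApc* members and 142 CPM in *LApcL* members, and at 59.1, 71.8 and 69.3 CPM in cycling cells without adenoma transcripts of WT, *LApc* and *LApcL*. *Cdkn1c* stood at 63.5 and 28.9 CPM in members and at 6.76, 6.73 and 7.33 CPM in the other cycling cells. Dividing adenoma cells thus carried more transcript of both inhibitors than the other cycling cells of the same library. *Cdkn2b* and *Cdkn2c*, which encode inhibitors of the G1 kinases, stood on the other side, with log2 ratios of -1.45 and -1.42 in *LApc* and -2.14 and -1.01 in *LApcL*. *E2f8*, an atypical E2F repressor, stood at -1.14 and -1.23. Of the p53 targets, *Phlda3* gave 3.99 and 1.88, and the list gave 0.80 and 0.43.

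Wnt feedback stood higher in members. All 8 antagonists were above 0 in both libraries, against 59.3% of all genes with 10 or more UMIs in *LApc* and 62.8% in *LApcL*, and their sum was 687 CPM in *LApc* members and 449 CPM in *LApcL* members against 89.0, 150.03 and 177 CPM in the cycling cells without adenoma transcripts of WT, *LApc* and *LApcL*. *Notum* stood at 158 and 93.3 CPM against 0.135, 11.8 and 23.4 CPM. *Axin2*, which the normal crypt also expresses, stood at 138 and 149 CPM against 59.5, 61.7 and 80.0 CPM. *Notum* thus separated the sets by a wider margin than *Axin2*.

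Stem cell genes split. *Prox1*, a homeobox gene linked to Wnt-driven tumours, stood at 130.3 and 39.3 CPM in members against 2.64, 13.2 and 6.91 CPM. *Olfm4*, a secreted stem cell marker, stood at 1.07 and 0.975 CPM against 23.9, 9.96 and 15.7 CPM, and *Lgr5* at 11.7 and 5.35 CPM against 21.0, 19.8 and 17.1 CPM. *Prox1* and *Cd44* were thus higher in members, and *Olfm4* and *Lgr5* lower. *Slc12a2*, a chloride cotransporter gene of the crypt base, gave -1.67 and -0.95.

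The genes ranked highest over other cycling cells were not cell cycle genes. *S100g* gave log2 ratios of 6.70 in *LApc* and 2.95 in *LApcL*, *Myl9*, which encodes a myosin light chain, 6.17 and 3.35, and *Ifitm1*, an interferon-induced transmembrane protein gene, 4.90 and 3.16. *Pdlim4* gave 5.79 and 2.97, and *Cited1*, a transcription cofactor gene, 5.24 and 2.67. *Ctsl*, which encodes the lysosomal protease cathepsin L, stood at 536 and 314 CPM in members against 8.62, 27.3 and 56.4 CPM. *Bace2* encodes β-secretase 2 and gave 3.34 and 2.42, and the homeobox gene *Pitx1* gave 3.46 and 2.27. *Lgals1*, which encodes galectin-1, and *Lyz1*, the Paneth cell lysozyme gene, were in the same group at 5.82 and 2.45 in *LApc*, but 5 cells held 51.3% and 45.5% of their UMIs there. In *LApcL* they gave 2.95 and 2.37. All 10 ratios were wider in *LApc*, where cycling cells without adenoma transcripts held lower levels than in *LApcL* for each of these genes except *Pitx1*, as for *S100g* at 83.7 against 570.1 CPM.

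Among the genes ranked lowest were defence and detoxification genes of the epithelium. *Dmbt1*, a scavenger receptor glycoprotein gene, stood at 60.4 and 47.1 CPM in members against 1163, 1551 and 1086 CPM in other cycling cells. The antimicrobial lectin genes *Reg3b* and *Reg3g*, which are close paralogs, gave -2.73 and -2.72 in *LApc* and -2.85 and -2.84 in *LApcL*. *Otc*, of the urea cycle, gave -3.44 and -3.60, and the mitochondrial aldehyde dehydrogenase gene *Aldh1b1* -3.67 and -3.34. The remaining 5, *Fgfbp1*, *Clca3b*, *Aadac*, *Tcea3* and *Sult1d1*, lay between -3.93 and -2.96 in *LApc* and between -3.78 and -3.41 in *LApcL*. Goblet markers were below 0 for 8 of 8 genes in both libraries (40.7% and 37.2% of all genes with 10 or more UMIs), with *Tff3*, which the rule limited, among them, and the enterocyte list gave -0.86 and -1.03.

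**Figure D4:**
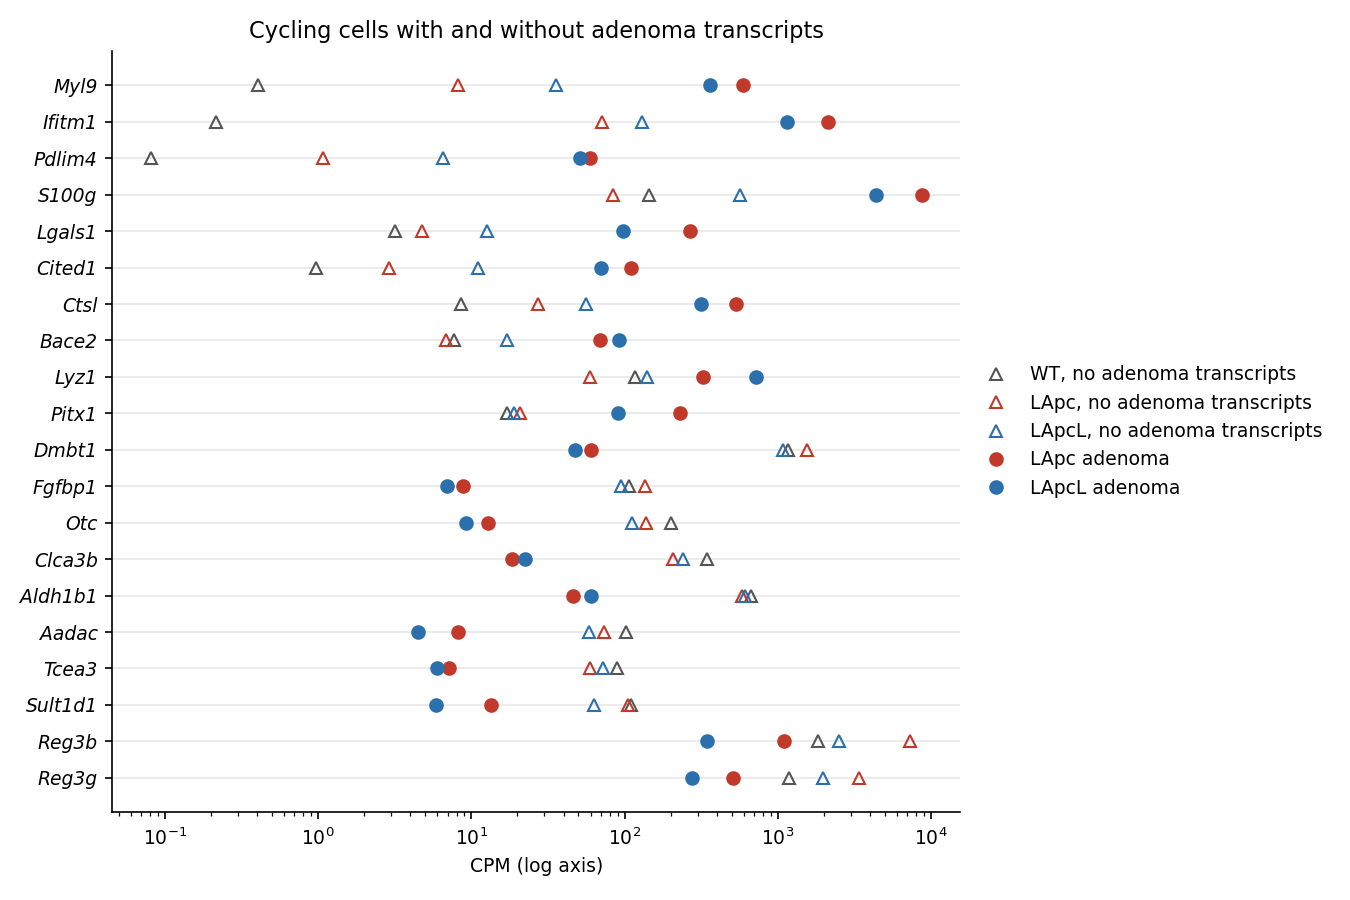
Level (CPM, log axis) of the 10 genes ranked highest and the 10 ranked lowest in members over cycling cells without adenoma transcripts. Open triangles are cycling cells without adenoma transcripts of WT, *LApc* and *LApcL*, and filled circles are *LApc* and *LApcL* members. Circles stand above all triangles of their own library for the higher genes, as for *Ctsl* at 536 and 314 CPM, and below them for the lower genes, as for *Dmbt1* at 60.4 and 47.1 CPM.

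Between the genotypes, the division programme of members was close and the Wnt antagonists, antigen presentation genes and interferon-stimulated genes stood lower in *LApcL*. The rule asked members of both libraries for the same minimum of division UMIs, so closeness in division genes is in part built in. Of 2804 genes at 50 CPM or more in either set, 17 (0.606%) stood 2-fold or more higher in *LApcL* members and 81 (2.89%) lower, with a median log2 ratio of -0.046. None of the 49 replication and 63 mitosis genes was past 2-fold, against 21.0% of all genes with 10 or more UMIs, of which 12.5% were past 2-fold lower, 59.9% were below 0 and the median was -0.10. These shares also cover genes below 50 CPM. The replication sum was 6654 CPM in *LApcL* and 7469 CPM in *LApc*, log2 -0.17 (-0.19 to -0.15), with 27 genes above 0 and 22 below. The mitosis sum was 5709 and 6635 CPM, log2 -0.22 (-0.24 to -0.20), with 9 genes above 0 and 54 below. All 23 spindle and cytokinesis genes were below 0, of which *Ckap2l* and *Hmmr*, at -0.0013 and -0.025, stood above it with the median ratio set to 0. The 8 division genes of the rule gave -0.26 (-0.31 to -0.22), and cells of the deeper library reach the threshold at a lower CPM.

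Regulators of the cell cycle differed gene by gene. *Ccnd2* stood at 569 CPM in *LApcL* members and 350.4 CPM in *LApc* members, log2 0.70 (0.61 to 0.79), non-cycling adenoma cells gave 0.43 (0.34 to 0.52), and cycling cells without adenoma transcripts gave -0.14 (-0.20 to -0.091). *Cdkn1c* stood at 28.9 against 63.5 CPM, log2 -1.14 (-1.35 to -0.91), and *Cdkn1a* at 142 against 214 CPM, log2 -0.59 (-0.71 to -0.47). *Cdkn2a*, the locus of the tumour suppressors p16 and p19Arf, rested on 21 UMIs in *LApc* members, 52.4% of them in 5 cells, and 15 UMIs in *LApcL* members. The 28 ribosome biogenesis genes gave 0.057 (0.038 to 0.075), 20 above 0 and 8 below, while 59.9% of all genes with 10 or more UMIs were below 0.

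The Wnt antagonists did not move as 1 block. *Wif1* (chr10:121033960-121100650, plus strand), which encodes a secreted protein that binds Wnt ligands, stood at 28.05 CPM in *LApc* members, 79 UMIs in 40 cells, and at 0.408 CPM in *LApcL* members, 36 UMIs in 25 cells, log2 -6.10 (-6.71 to -5.52). With each cell thinned to 3000 UMIs, a *Wif1* UMI was left in 17 of 236 *LApc* members (7.20%) and 7 of 6052 *LApcL* members (0.116%), against 0.602% of *LApc* cycling cells without adenoma transcripts and 0 of 883 such cells in *LApcL* (a share of up to 0.340%). *Dkk3* stood at 13.1 and 0.635 CPM, log2 -4.37 (-5.00 to -3.73), and *Dkk2*, a secreted ligand of the Wnt co-receptor Lrp6, at 17.8 and 3.66 CPM, log2 -2.28 (-2.71 to -1.82). Non-cycling adenoma cells gave -5.36, -2.96 and -1.33 for the same 3 genes.

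The other antagonists differed by less. *Nkd1* stood at 240.4 and 118 CPM in *LApc* and *LApcL* members, log2 -1.03 (-1.14 to -0.91), and *Notum* at 158 and 93.3 CPM, log2 -0.76 (-0.90 to -0.62). *Axin2* stood at 138 and 149 CPM, log2 0.11 (-0.039 to 0.26), an interval that includes 0. *Rnf43*, a ubiquitin ligase that removes Wnt receptors, stood at 62.5 and 64.7 CPM, log2 0.051 (-0.17 to 0.28). *Znrf3*, its close relative, lay between at 28.4 and 19.2 CPM, log2 -0.57 (-0.89 to -0.22). *Axin2* and *Rnf43*, which stood at 59.5 and 18.4 CPM in WT cycling cells, were thus close between the genotypes. *Wif1*, *Dkk2*, *Dkk3*, *Nkd1* and *Notum*, which ranged from 0 to 1.64 CPM in WT cycling cells, stood lower in *LApcL* members. The other Tcf/Lef genes gave 0.24 (-0.12 to 0.62) for *Tcf7* and 0.32 (0.072 to 0.58) for *Tcf7l2*.

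Among stem cell genes, *Prox1* stood at 130.3 CPM in *LApc* members and 39.3 CPM in *LApcL* members, log2 -1.73 (-1.89 to -1.57), with -1.38 in non-cycling adenoma cells. *Lgr5* gave -1.13 (-1.64 to -0.57) and *Tnfrsf19*, a Wnt target receptor gene, -1.197 (-1.48 to -0.91). *Cd44* stood on the other side at 96.9 and 150.3 CPM, log2 0.63 (0.46 to 0.81), and cycling cells without adenoma transcripts gave 0.81 (0.66 to 0.96) as well. The 16 genes together gave -0.16 (-0.21 to -0.11).

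Immune recognition genes, listed after their values had been seen, stood lower in *LApcL* members. MHC class I presentation genes, which display peptides of the cell itself, were lower in *LApcL* members for 10 of 10, 9 of them past 2-fold (12.5% of all genes with 10 or more UMIs), and summed to 2929.7 CPM in *LApc* and 852 CPM in *LApcL*. Non-cycling adenoma cells of *LApc* and *LApcL* had sums of 2762 and 1090 CPM, also lower in *LApcL*. *B2m*, the shared light chain, stood at 967 CPM in *LApc* members and 233 CPM in *LApcL* members, and at 816, 689.9 and 593 CPM in cycling cells without adenoma transcripts of WT, *LApc* and *LApcL*. In summed level *LApcL* members thus stood below all 3 other cycling sets and *LApc* members above them. With each cell thinned to 3000 UMIs, a *B2m* UMI was left in 68.2% of *LApc* members and 47.0% of *LApcL* members, against 89.8%, 84.3% and 77.5% of the other cycling cells, so that by share of cells both sets of members stood below all 3. *H2-K1* and *H2-D1*, which are similar in sequence and may share reads, stood at 632 and 799 CPM in *LApc* members and 187 and 256 CPM in *LApcL* members. *Psmb8*, a subunit of the immunoproteasome, gave -2.64 (-2.79 to -2.49) in members and -0.53 (-0.63 to -0.42) in cycling cells without adenoma transcripts.

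MHC class II genes, which the gut epithelium can express, were past 2-fold lower for 7 of 7, again against 12.5%. *Cd74*, the invariant chain, stood at 377 and 83.5 CPM in *LApc* and *LApcL* members and at 377, 636 and 404 CPM in the other cycling sets. The 12 interferon-stimulated genes were past 2-fold lower for 12 of 12, against the same 12.5%, and summed to 419.6 and 81.8 CPM in members, against 109, 128 and 117 CPM in the other cycling sets. *Irf7*, a transcription factor of the interferon response, stood at 39.8 and 10.6 CPM against 7.62, 9.15 and 9.53 CPM. The summed interferon-stimulated level was thus higher in *LApc* members and lower in *LApcL* members than in all 3 other cycling sets. For *LApc* members over other cycling cells of that library the log2 ratio was 1.71, and as low as 0.60 among 14 alternatives. Non-cycling adenoma cells of *LApc* and *LApcL* gave 255 and 95.1 CPM for these genes and 468 and 221 CPM for MHC class II genes, also lower in *LApcL*. Of the 4 immune markers that had 10 or more UMIs, 3 were lower in *LApcL* members, against 59.9% of all such genes, with *Lyz2* at 6.04 and 0.420 CPM. The part of immune transcripts in the result was not tested.

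The ranked genes included metabolic enzymes on the higher side. *Cps1*, the entry enzyme of the urea cycle, stood at 41.5 CPM in *LApc* members and 160.2 CPM in *LApcL* members, log2 1.95 (1.69 to 2.22), and *Ckb*, a creatine kinase gene, at 70.6 and 261 CPM, log2 1.88 (1.68 to 2.09). *Aqp1*, a water channel gene, stood at 43.0 and 190.1 CPM, log2 2.15 (1.89 to 2.42), and *Lmo1*, a LIM-domain cofactor gene, at 18.5 and 52.4 CPM, log2 1.505 (1.11 to 1.93). *Phgr1* gave 1.33 (1.23 to 1.43). The metallothionein gene *Mt4*, the pepsinogen gene *Pgc*, *Apoe* and *Lyz1* were also ranked here, at 1.92, 1.80, 1.67 and 1.15. In *LApc* members 5 cells held 53.7%, 73.5%, 56.2% and 45.5% of their UMIs, and in non-cycling adenoma cells *Mt4* stood at -0.34, on the other side of 0. After thinning, a *Cps1* UMI was left in 8.90% of *LApc* members and 32.7% of *LApcL* members. Other cycling cells gave 82.3% (WT), 73.3% (*LApc*) and 65.3% (*LApcL*), all above both sets of members. *Aqp1* gave 6.78% and 40.1% in members against 20.9%, 29.6% and 34.0%, and *Ckb* 20.8% and 48.4% against 29.5%, 28.2% and 40.3%. For both, *LApc* members stood below the other cycling cells and *LApcL* members above, although *Ckb* intervals overlapped between the *LApc* sets.

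On the lower side, *H2-Q7*, a non-classical MHC class I gene, gave -4.98 (-5.26 to -4.71), *Isg15*, an interferon-induced ubiquitin-like protein gene, -3.18 (-3.45 to -2.91), and *Cfi*, which encodes complement factor I, -4.18 (-4.46 to -3.90). *Bex1* stood at 185 and 10.9 CPM in *LApc* and *LApcL* members, *Muc6*, a mucin gene of gastric glands, at 53.3 and 3.98 CPM, and *Gsta1*, a glutathione transferase gene, at 57.5 and 7.61 CPM. *Spp1*, which encodes osteopontin, gave -3.41 (-3.65 to -3.17) and *AA467197* -3.41 (-3.67 to -3.14). A pair of ranked genes rested on few *LApc* cells. The chemokine gene *Cxcl9* had 171 UMIs there, 69.0% of them in 5 cells, and for the incretin gene *Gip* 5 cells held 93.5%. With the 2% of cells that held the most UMIs of a gene left out, *Gip* gave -1.46 in place of -3.70.

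Differentiation markers also stood lower in *LApcL* members. All 15 enterocyte genes were below 0 (59.9% of all genes with 10 or more UMIs), 8 of them past 2-fold (12.5%) and *Vil1*, at -0.019, above 0 with the median ratio set to 0, and summed to 3136 CPM in *LApc* and 1547 CPM in *LApcL*. *Fabp1*, which encodes a fatty acid binding protein, stood at 617 and 224 CPM in *LApc* and *LApcL* members and at 510.3, 959 and 505 CPM in other cycling cells. The 8 goblet genes gave -0.56 (-0.59 to -0.53). *S100g* and *Clu*, which mark the adenoma, stood lower too, with log2 ratios of -0.98 (-1.002 to -0.96) and -1.27 (-1.34 to -1.204) in members and -0.62 and -0.71 in non-cycling adenoma cells. For *S100g* the share of cells went the other way, since after thinning to 3000 UMIs 84.0% of *LApcL* members but 63.6% of *LApc* members held a UMI of it. Dissociation stress genes gave -0.72 (-0.78 to -0.65), with *Jun* at 144 and 88.8 CPM and *Fos* at 43.3 and 41.5 CPM, and their part in the other differences was not tested.

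**Figure D5:**
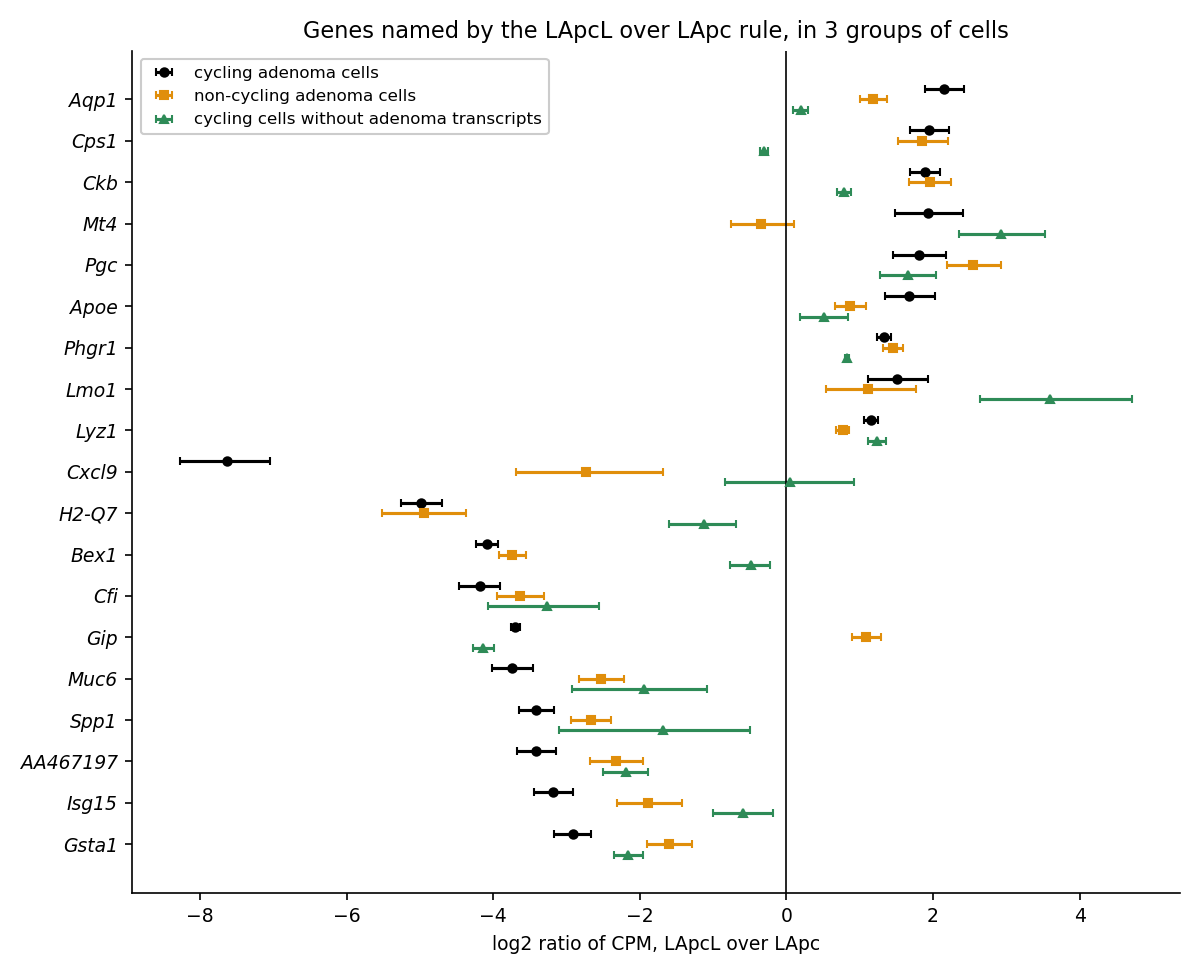
Log2 ratio of *LApcL* over *LApc*, with 95% counting intervals, for genes ranked highest and lowest in members, shown for members, non-cycling adenoma cells and cycling cells without adenoma transcripts. Members stand at 1.95 for *Cps1* and -4.98 for *H2-Q7*, and non-cycling adenoma cells at 1.85 and -4.94.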

How the data were processed

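Per the labels and the study's methods, the authors made droplet 3′ libraries and quantified them with Cell Ranger 2.1.1 on a mouse mm10 (GRCm38) reference. The deposited values were raw UMI counts per gene and barcode, without normalization. No cell annotation was used, and the cells were rebuilt by the rule given above. The members and gene lists were chosen with earlier results of these data known, and the MHC and interferon lists after their values had been seen. UMIs were summed over the cells of a set, divided by the total and compared as log2 ratios with exact conditional binomial intervals, levels with exact Poisson and shares with Clopper-Pearson intervals (scipy 1.17.1). With 1 library per genotype no test was run. All list genes could be named, and for each comparison the 10 highest and 10 lowest genes at 50 CPM or more in either set, by the interval bound closer to 0 (*LApcL* over *LApc*) or the ratio closer to 0 of both libraries, leaving out ribosomal protein, mitochondrial and unnamed genes, and a pair of genes is not reported here. List counts over single genes used those with 10 or more UMIs in both sets together, and medians over all genes those at 50 CPM or more unless stated. Scrublet (scanpy 1.11.5) gave the doublet scores, and scored barcodes were kept in the values reported. The ratio and its interval were tested on simulated data.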

Additional observations from a re-analysis of the deposited data

How the results depend on the processing

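Limits and alternatives are given together. Over 18 alternatives, 16 planned and 2 chosen after seeing the data, 1756 recomputed ratios of named genes had stood past 2-fold, of which 49 fell short of it and 1 changed sign; for list sums these counts were 636, 40 and 4. Thinning to 3000 UMIs turned *Dkk3* in *LApcL* members over non-cycling cells from -1.70 to 0.48, the enteroendocrine sum in *LApc* members over non-cycling cells from 2.03 to -2.10 and the fetal-like sum in *LApcL* members over other cycling cells from 1.18 to -0.046. Leaving out the 2% of cells with most UMIs of a gene turned that enteroendocrine sum to -0.30 and the tuft sum of *LApc* members over non-cycling cells from -1.16 to 0.022. The cycling share of adenoma cells in *LApc* (50.8%) was 55.6% with 5 *Sox17* and *Msx1* UMIs required, 55.7% with 3 division UMIs, 36.1% with 8 and 18.4% after thinning. In *LApcL* (65.4%) it was 63.4% with 2 *Sox17* and *Msx1* UMIs, 68.0% with 5, 71.4% with 3 division UMIs, 48.1% with 8, 63.1% without scored doublets and 23.6% after thinning. Counts past 2-fold for *LApcL* over *LApc* (17 higher, 81 lower) were 196 and 381 after thinning, 1025 and 1673 with no minimum beyond 10 UMIs, and 10 and 43 at 100 CPM, and 26 were higher with totals that left out ribosomal protein and mitochondrial genes. For members over non-cycling cells (48 and 6) they were 264 and 108 without the minimum, 30 and 3 at 100 CPM and 78 and 12 with those totals, and 3 were lower after thinning. For members over other cycling cells (74 and 76) they were 28 and 48 after thinning, 914 and 553 without the minimum and 43 and 38 at 100 CPM, and 142 were lower with those totals. Thinning leaves 29 *LApc* members, and a minimum decides how many genes are counted, while the cause of the other shifts was not tested. No paired analysis was possible because each genotype had 1 library, and no result comes from a test. Ratios resting on the 236 *LApc* members are the least precise.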

Other observations

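Fetal-like genes, which mark the developing and the regenerating gut epithelium, were above 0 in members over other cycling cells of the same library for 10 of 10 with 10 or more UMIs in *LApc* and 9 of 11 in *LApcL*, against 59.3% and 62.8% of all such genes, although their *LApcL* sum, at 1.18, fell to -0.046 when each cell was thinned to 3000 UMIs. *Il33*, which encodes an alarmin cytokine, stood at 57.9 and 27.8 CPM in *LApc* and *LApcL* members against 0.431, 4.98 and 4.08 CPM in cycling cells without adenoma transcripts of WT, *LApc* and *LApcL*. *Ly6a*, which encodes the surface antigen Sca-1, stood at 94.4 CPM in *LApc* members but at 16.8 CPM in *LApcL* members, and at 3.42, 16.8 and 25.5 CPM in the other cycling cells, although 5 cells held 47.4% of its UMIs in *LApc* members. The fetal-like list summed to 3926 and 3596 CPM in *LApc* and *LApcL* members, and the calcium-binding protein gene *S100a6* alone made up 3026 and 3033 CPM of it.

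Secretory markers were uneven. *Mmp7*, a Paneth cell protease gene that is also known from Wnt-driven adenomas, stood at 246 and 124 CPM in *LApc* and *LApcL* members against 34.5, 74.9 and 97.2 CPM in the other cycling cells. The Paneth list gave 0.52 (0.47 to 0.56) in *LApc* and 0.59 (0.56 to 0.62) in *LApcL* for members over other cycling cells of the same library. Its sum was 1498 and 1604 CPM in *LApc* and *LApcL* members. In the other cycling cells of WT, *LApc* and *LApcL* it was 3170, 1048 and 1067 CPM, so both sets of members stood below WT. Enteroendocrine genes were led in *LApc* members by *Gip* and *Cck*, and 5 cells held 93.5% and 74.2% of their UMIs. In *LApcL* the enteroendocrine list was lower in members than in non-cycling adenoma cells for 12 of 12 genes, against 57.6% of all genes with 10 or more UMIs. Its sum gave -1.36 (-1.39 to -1.33). The tuft cell channel gene *Trpm5* had 0 UMIs in *LApc* members, which allows up to 1.07 CPM, and stood at 2.43 CPM in *LApcL* members.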
